A study of Saccharomyces cerevisiae with 6 samples.

Results

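The genes described here encode the proteins of endocytosis and of the cortical actin patch in budding yeast. They are 44 genes out of 5449 that the arrays measured, chosen by function with earlier results of these data known, from coat proteins through the Arp2/3 complex to the patch kinases. Each of the 44 had 1 annotated probe set apart from the array's labelling controls, with a suffix that marks it as specific to 1 gene, and lay above the background level on all 6 arrays. Cells without VPS1, whose product is a dynamin-related GTPase that acts in vacuolar sorting and endocytosis, were compared with wild type cells. The deletion strain carries the strain name Y05072 in the labels and the wild type is BY4741, so each genotype stands for 1 strain. Cultures of both strains were kept at 30 degrees in minimal medium with supplements, and 3 arrays of total RNA per strain came from independent cultures according to the series design. VPS1 itself had values of 2.54, 2.40 and 2.23 on the deletion arrays, below background on each, and 10.32, 9.98 and 9.95 on the wild type arrays. Values are on a log2 scale after quantile normalization of all probe sets, called the quantile scale, and a difference is always vps1 deletion minus wild type.

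A clathrin-coated endocytic site in yeast is built in a fixed order. Early coat proteins mark the site and gather cargo, later coat proteins link the membrane to actin, and a module around the WASP homologue Las17 and type I myosins switches on the Arp2/3 complex. Arp2/3 nucleates a branched actin network that pulls the membrane inward, amphiphysins and lipid phosphatases act at scission, and kinases of the Ark and Prk family take the coat apart again so that its proteins can be reused. Vps1 itself has been seen at these sites.

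Most patch genes lay slightly higher in the deletion strain. Of the 44, 7 rose and 0 fell in limma's moderated test at an adjusted p below 0.05 over all genes, which is 15.9% of them, beside 6.77% of all genes that rose and 6.28% that fell. The 7 were ARK1, PRK1, VRP1, MYO3, ENT1, BBC1 and YAP1801, and their differences lay between 0.44 and 0.77. The labels give the strains the same replicate numbers, and in a fit that compares arrays of equal number, called the block, 21 of 44 rose and 0 fell, or 47.7%, beside 14.4% and 16.4% of all genes. These 21 were the 7 and a further 14, among them 5 of the 7 Arp2/3 genes. Without the block, 18 of the 44 had an unadjusted p below 0.05, beside 1574 of all 5449 genes. Of the patch genes below 0, this held for 1, INP51 (0.0352). The median difference of the 44 was 0.24, against -0.041 over all genes, and 39 of them, or 88.6%, lay above 0, beside 43.2% of all genes. The smallest was -0.26 for BZZ1 and the largest 0.77 for ARK1, both smaller than 1 in size on the quantile scale. As deposited, 6 of the 44 exceeded 1, up to 1.35 for ARK1. In bulk RNA of a culture, a change per cell and a change in the share of cells that express a gene cannot be told apart.

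**Figure D1:**
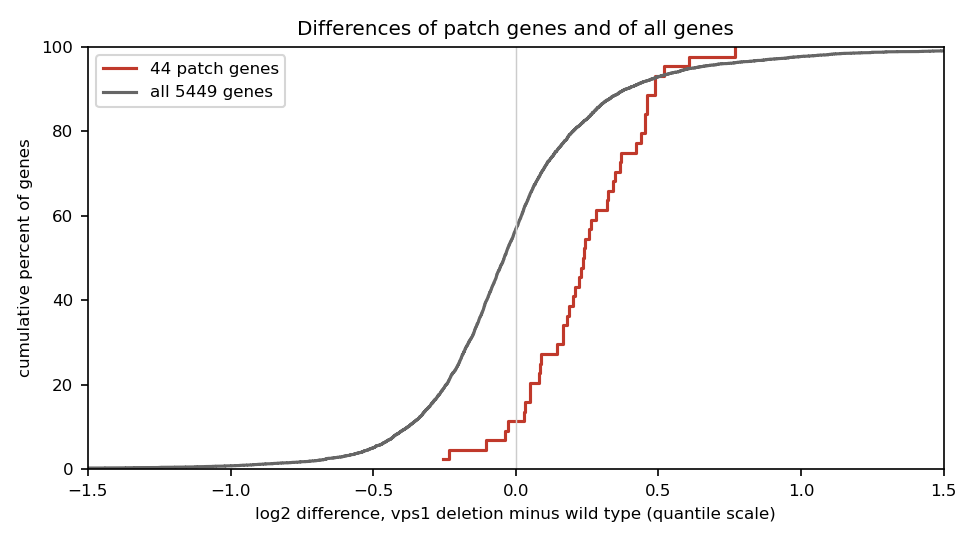
Cumulative percent of genes (y) against the log2 difference between vps1 deletion and wild type on the quantile scale (x, shown from -1.5 to 1.5), for the 44 patch genes (red) and all 5449 genes (grey). The patch gene curve lies to the right of the curve of all genes up to about 0.5 and has no long tail, with a median of 0.24 against -0.04.

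The count without the block changed with the arrays used, and so did that of all genes. Without vps1 deletion replicates 1, 2 and 3 in turn, 1, 6 and 2 of the 44 patch genes rose, beside 4.17%, 4.88% and 3.65% of all genes. Without wild type replicates 1, 2 and 3 in turn, 9, 1 and 5 of the 44 rose, beside 7.93%, 4.07% and 5.21% of all genes. The excess over all genes was thus absent without vps1 deletion replicate 1 or wild type replicate 2, where 1 of 44 is the smaller share. Without vps1 deletion replicate 3 the excess was slight, as 2 of 44 is close to the 3.65% of all genes. With each array centred on its median in place of quantile normalization the count was 2 of 44. That share is slightly below the 4.70% of all genes that rose on that scale. That centring placed the median of all genes at -0.15, and centring on the median of genes alone, which placed it at -0.03, gave 6 of 44, beside 6.99% of all genes. With the block, 13, 9 and 13 patch genes rose without both arrays numbered 1, 2 and 3 in turn, beside 10.9%, 9.36% and 12.7% of all genes. Without those numbered 3, BZZ1 also fell, by 0.33 (adjusted p = 0.0348). As deposited, where all genes lie 0.51 higher in the deletion strain at the median, 43 of 44 rose, beside 76.0% of all genes. The 4641 genes with mean levels within the range of the 44 had a median difference of -0.04 on the quantile scale. They are most of the 5449 genes, so this median could hardly differ from that of all genes. The medians of the 16 chromosomes lay between -0.065 and -0.0021.

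The values of single arrays showed the same small shift. For 17 of the 44 genes all 3 deletion arrays lay above all 3 wild type arrays, or 38.6%, beside 15.0% of all genes, and for 1, INP51, all lay below, beside 19.0%. For 26 genes the strains overlapped. With 1 array fewer, which makes such separation easier for any gene, the deletion arrays lay above wild type for 31 patch genes without wild type replicate 1, beside 20.9% of all genes. Without each of the other 5 arrays they did so for 17 to 26, beside 17.0% to 19.2% of all genes. When each deletion array was set against the wild type array of the same number, 33 of 44 genes were higher in all 3 pairs, or 75.0%, beside 25.4% of all genes, and 2 were lower in all 3, BZZ1 and INP51, beside 35.2%. The arrays numbered 1 were the highest of their strain in both strains for 27 patch genes, or 61.4%, beside 26.6% of all genes. The median deviation of the 44 from their strain mean was 0.086, -0.079 and -0.0032 on the deletion arrays 1 to 3, and 0.15, -0.055 and -0.089 on the wild type arrays 1 to 3.

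**Figure D2:**
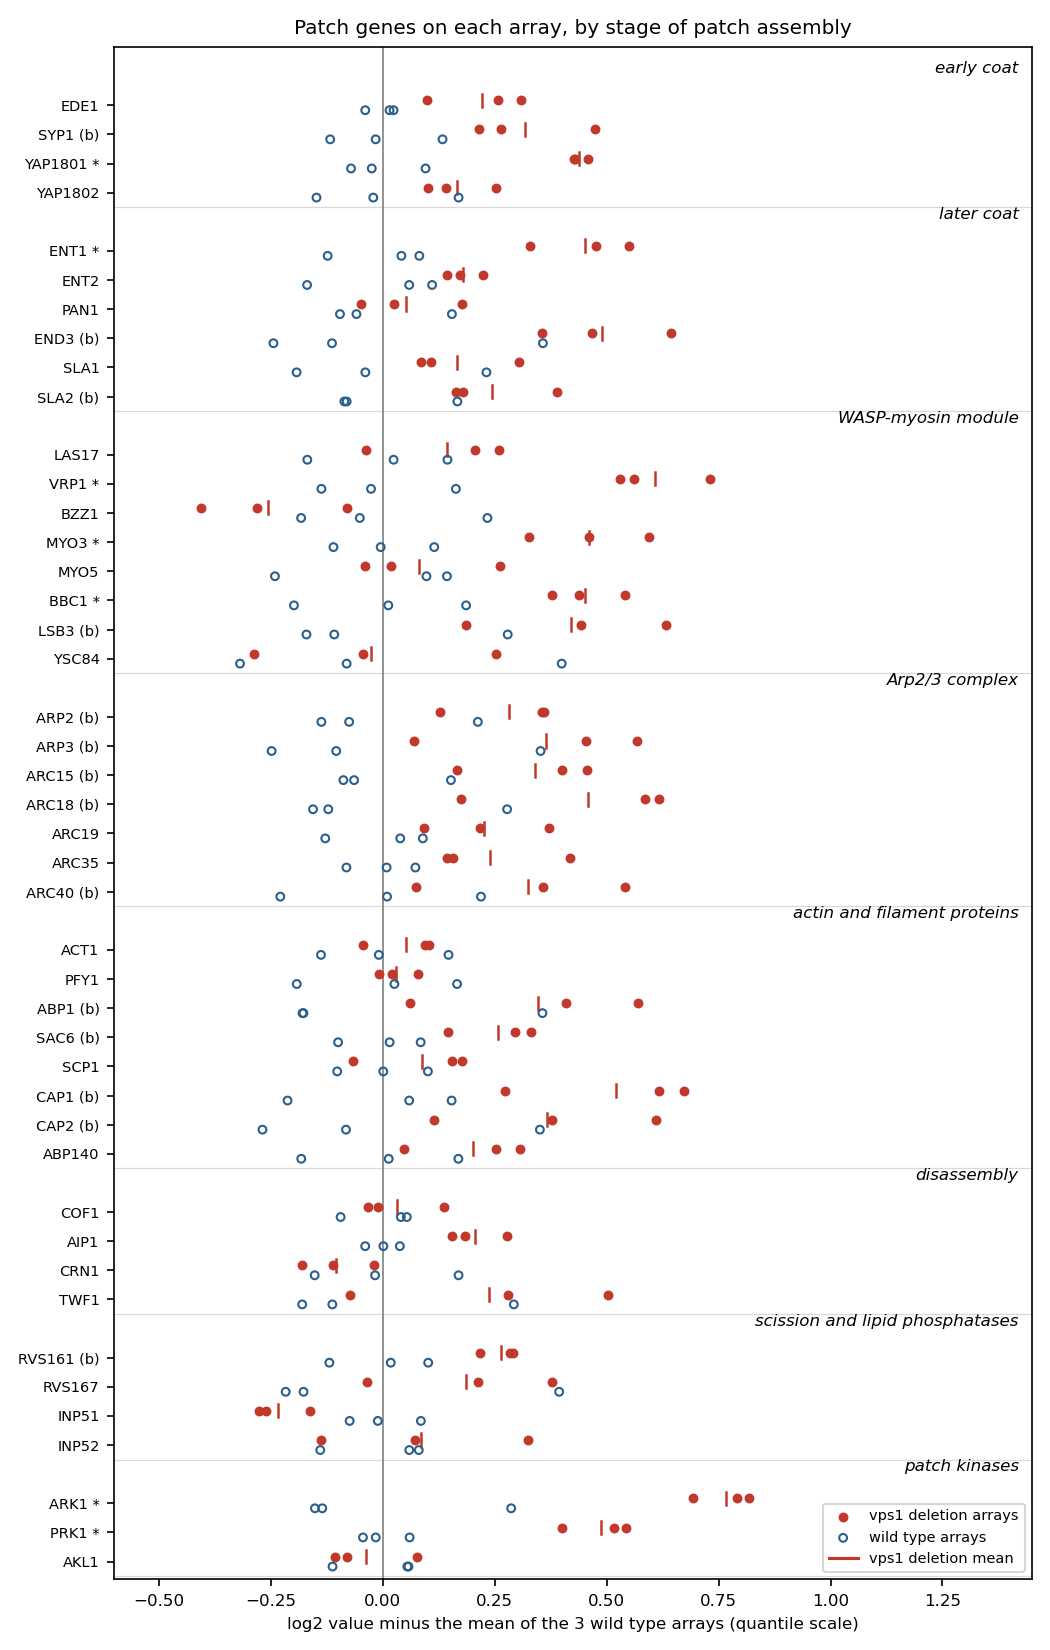
Value of each of the 44 genes on each array, as log2 minus the mean of the 3 wild type arrays (x, quantile scale), with genes in rows by stage of patch assembly (y). Filled red points are vps1 deletion arrays, open blue points wild type arrays, and the short red line the deletion mean. An asterisk marks the 7 genes past the threshold and (b) the 14 that pass with the replicate block. ARK1, VRP1, MYO3 and YAP1801 show deletion arrays clear of the wild type arrays, while the Arp2/3 genes overlap or nearly do.

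Among the early coat genes, 1 of 4 rose, beside 6.77% of all genes, and a count of 1 says little about the stage. The median difference of the 4 was 0.27. YAP1801, an adaptor of the AP180 type that joins clathrin to the membrane, had values of 9.70, 9.69 and 9.73 on the deletion arrays and 9.36, 9.20 and 9.24 on the wild type arrays. The strains were clear of each other, and YAP1801 rose by 0.44 ± 0.089 (SE, n = 3 per strain, adjusted p = 0.0193). SYP1, an F-BAR protein that arrives early and bends the membrane, had 9.59, 9.38 and 9.33 in the deletion strain and 9.25, 9.10 and 9.00 in wild type, a difference of 0.32 ± 0.11 that passed with the block alone (adjusted p = 0.109, and 0.0181 with the block). EDE1, the Eps15-like scaffold that starts many sites, differed by 0.22 ± 0.094 and YAP1802, the second AP180 adaptor, by 0.17 ± 0.11. Neither passed either fit, although the EDE1 groups did not overlap.

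Of the 6 later coat genes 1 rose, beside 6.77% of all genes, again a single gene. All 6 were above 0, beside 43.2% of all genes, and the median of the 6 was 0.21. ENT1, an epsin that binds phosphoinositides and ubiquitinated cargo, had 10.15, 9.93 and 10.08 on the deletion arrays and 9.68, 9.64 and 9.48 on the wild type arrays, without overlap, and rose by 0.45 ± 0.10 (adjusted p = 0.0308). END3, a partner of Pan1 and Sla1 in the coat, had 10.19, 10.48 and 10.31 in the deletion strain and 9.59, 9.72 and 10.20 in wild type. Its difference of 0.49 ± 0.17 passed with the block (adjusted p = 0.0987, and 0.0275 with the block), and wild type array 3 lay level with the lowest deletion array. SLA2, which links clathrin and membrane to actin filaments, had 10.70, 10.48 and 10.49 in the deletion strain against 10.48, 10.23 and 10.23 in wild type, 0.24 ± 0.11, and was called with the block only (adjusted p = 0.207, and 0.0440 with the block). The scaffold PAN1, an activator of Arp2/3, differed by 0.051 ± 0.11, the cargo adaptor SLA1 by 0.17 ± 0.13, and the second epsin ENT2 by 0.18 ± 0.10. None of these 3 passed either fit.

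The module around Las17 held the widest range, from -0.26 to 0.61, and 3 of its 8 genes rose, beside 6.77% of all genes. VRP1, verprolin, which holds Las17 and the type I myosins together, had 9.63, 9.46 and 9.43 on the deletion arrays and 9.06, 8.76 and 8.87 on the wild type arrays. The lowest deletion array stood well above the highest wild type array, and VRP1 rose by 0.61 ± 0.11 (adjusted p = 0.0134). MYO3, 1 of the 2 type I myosins, had 9.38, 9.11 and 9.25 in the deletion strain and 8.90, 8.78 and 8.67 in wild type and rose by 0.46 ± 0.11 (adjusted p = 0.0342). BBC1, an SH3 protein that restrains Las17 activity, had 10.18, 10.29 and 10.12 in the deletion strain and 9.55, 9.76 and 9.93 in wild type, again without overlap, and rose by 0.45 ± 0.12 (adjusted p = 0.0479). BBC1 was the closest of the 7 to the threshold, and its adjusted p was 0.0501 when arrays were centred on the median of genes.

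LSB3, an actin-binding SH3 protein that also binds Las17, had 10.87, 10.42 and 10.68 in the deletion strain and 10.52, 10.07 and 10.13 in wild type. Wild type array 1 lay above deletion array 2, and the difference of 0.42 ± 0.16 passed with the block alone (adjusted p = 0.134, and 0.00956 with the block). LAS17 itself, the nucleation-promoting factor at the centre of the module, differed by 0.14 ± 0.12 (adjusted p = 0.502), and the myosin MYO5 by 0.080 ± 0.14. BZZ1, an F-BAR protein that binds Las17, lay lower in the deletion strain in all 3 numbered pairs, at 8.94, 8.61 and 8.74 against 9.25, 8.97 and 8.84 in wild type, but the difference of -0.26 ± 0.14 did not pass with all 6 arrays (adjusted p = 0.272, and 0.0586 with the block). YSC84, the relative of LSB3, differed by -0.027 ± 0.21 with a wild type spread of 0.37 (SD).

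None of the 7 Arp2/3 genes rose without the block, beside 6.77% of all genes, while 5 rose with it, beside 14.4%. Without the block 2 of the 7 had an unadjusted p below 0.05, which is about the share of all genes (1574 of 5449). All 7 were higher in the deletion strain in each of the 3 numbered pairs, beside 25.4% of all genes. The differences of the 7 filled a narrow range from 0.23 to 0.46, with a median of 0.32. The actin-related subunits ARP2 and ARP3, which form the start of the new filament, differed by 0.28 ± 0.13 and 0.36 ± 0.19 without the block (adjusted p = 0.188 and 0.252). ARP3 had 11.89, 11.39 and 11.78 on the deletion arrays and 11.68, 11.07 and 11.22 on the wild type arrays, and the range within each strain exceeded the difference between the strain means. By numbered pair ARP3 was higher in the deletion strain by 0.22, 0.32 and 0.56, and ARP2 by 0.15, 0.27 and 0.43. With the block the adjusted p was 0.0238 for ARP3 and 0.0455 for ARP2, whose values were 11.78, 11.55 and 11.78 in the deletion strain and 11.64, 11.29 and 11.35 in wild type.

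Of the smaller subunits, ARC18 had 11.58, 11.14 and 11.55 in the deletion strain and 11.24, 10.81 and 10.84 in wild type. Its difference of 0.46 ± 0.17 passed with the block (adjusted p = 0.116, and 0.0142 with the block), as did that of ARC15 (0.34 ± 0.12, adjusted p = 0.101, and 0.0194 with the block). ARC15 had 12.02, 11.73 and 11.96 on the deletion arrays and 11.71, 11.47 and 11.50 on the wild type arrays, with deletion array 2 just above wild type array 1. ARC40, the WD-repeat subunit, had 11.22, 10.94 and 11.40 in the deletion strain against 11.08, 10.63 and 10.87 in wild type and differed by 0.32 ± 0.16 (adjusted p = 0.224, and 0.0406 with the block). ARC19 and ARC35 had groups that did not overlap and smaller differences, 0.23 ± 0.11 and 0.24 ± 0.11, and stayed just outside the threshold with the block (adjusted p = 0.0580 and 0.0590). Array 2 was the lowest of its strain in both strains for 6 of the 7 genes, beside 18.6% of all genes and 18 of the 44 patch genes, or 40.9%. ARC35 was the exception.

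**Figure D3:**
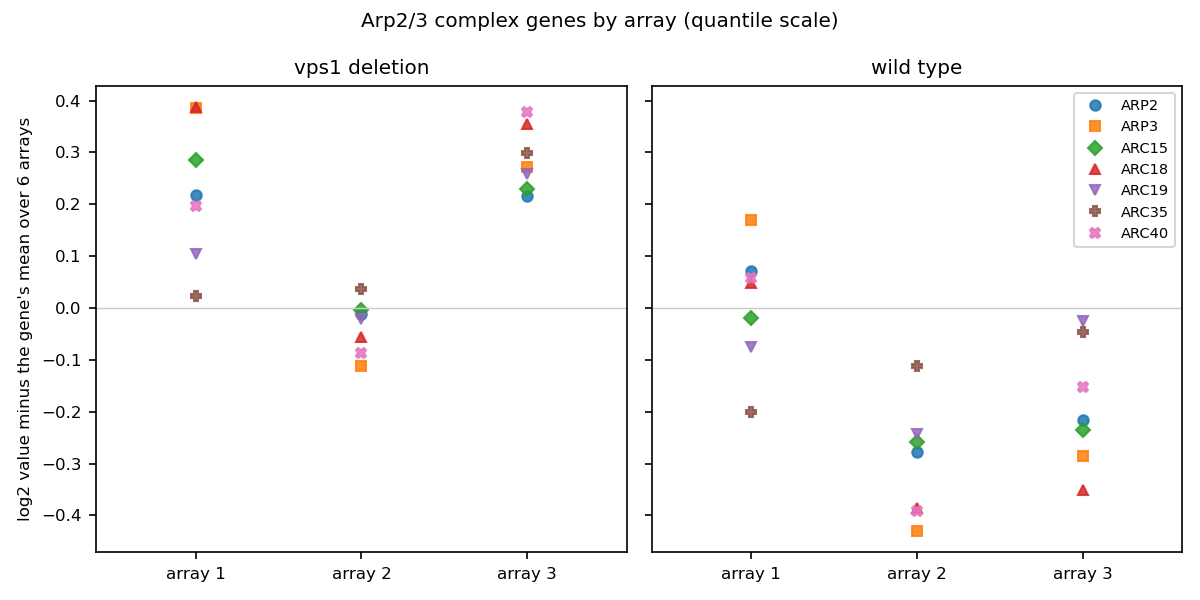
Values of the 7 Arp2/3 genes on each array, as log2 minus the gene's mean over the 6 arrays (y, quantile scale), for the vps1 deletion arrays (left) and wild type arrays (right) by replicate number (x). Array 2 is the lowest of its strain in both strains for all but ARC35, and each deletion array lies above the wild type array of its number.

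Actin and the proteins that bind, bundle or cap its filaments all lay above 0, beside 43.2% of all genes. The median difference of the 8 was 0.23. Without the block none of the 8 rose. Of these, 2 had an unadjusted p below 0.05, a smaller share than that of all genes (1574 of 5449). With the block 4 of the 8 rose, beside 14.4% of all genes. Both subunits of capping protein, which closes the fast-growing end of a filament, were among the 4. CAP1 had 11.13, 10.73 and 11.07 on the deletion arrays and 10.61, 10.24 and 10.51 on the wild type arrays. CAP1 did not overlap and differed by 0.52 ± 0.15 (adjusted p = 0.0569, and 0.00292 with the block). CAP2 had 10.99, 10.50 and 10.76 on the deletion arrays and 10.73, 10.11 and 10.30 on the wild type arrays. Its groups overlapped and differed by 0.37 ± 0.19 (adjusted p = 0.243, and 0.0145 with the block). ABP1, the patch protein that brings Ark1 and Prk1 to actin, had 10.71, 10.20 and 10.55 in the deletion strain and 10.50, 9.96 and 9.97 in wild type, 0.35 ± 0.19 (adjusted p = 0.272, and 0.0355 with the block). SAC6, fimbrin, which bundles filaments, had 11.63, 11.60 and 11.45 in the deletion strain against 11.39, 11.32 and 11.20 in wild type, 0.26 ± 0.10, without overlap (adjusted p = 0.135, and 0.0369 with the block). The transgelin homologue SCP1 differed by 0.088 ± 0.11 and the filament-binding protein ABP140 by 0.20 ± 0.12, and neither passed.

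Actin itself differed by less than the spread between arrays. ACT1, the single actin gene, had 13.85, 13.71 and 13.85 on the deletion arrays and 13.90, 13.74 and 13.61 on the wild type arrays, a difference of 0.051 ± 0.11 (adjusted p = 0.804). The arrays carry 6 more actin probe sets as labelling controls, placed towards the 3′ end, the middle and the 5′ end of the transcript, and these gave differences from -0.031 to 0.13. Their exact permutation p, 2-sided over the arrays, lay between 0.2 and 0.9, where 0.1 is the smallest that 3 against 3 allows. PFY1, profilin, which feeds actin monomers to growing filaments, differed by 0.030 ± 0.11 (adjusted p = 0.897). On the deposited scale ACT1 was 0.59 and PFY1 0.58 higher in the deletion strain, close to the 0.51 of all genes.

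Genes of filament disassembly were called in neither fit. All 4 stayed outside the threshold, where 6.77% of all genes rose without the block and 14.4% with it. The median of the 4 was 0.12. An unadjusted p below 0.05 was reached by 1 of the 4, a smaller share than that of all genes (1574 of 5449). AIP1, the cofactor of cofilin, had 10.89, 11.01 and 10.92 in the deletion strain and 10.73, 10.77 and 10.69 in wild type. These groups did not overlap, and the difference of 0.21 ± 0.087 had an adjusted p of 0.168, and 0.0760 with the block. TWF1, twinfilin, had 9.15, 8.58 and 8.93 in the deletion strain against 8.94, 8.47 and 8.54 in wild type, with overlap, and differed by 0.24 ± 0.18 (adjusted p = 0.442). COF1, cofilin, which severs old filaments, differed by 0.031 ± 0.10, and CRN1, coronin, by -0.10 ± 0.11.

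Scission and lipid phosphatase genes did not pass without the block. With it 1 of 4 rose, beside 14.4% of all genes, and a count of 1 says little about the stage. RVS161, 1 of the 2 amphiphysins that pinch the neck of the invagination, had 12.19, 12.13 and 12.20 on the deletion arrays and 11.79, 11.93 and 12.01 on the wild type arrays, 0.26 ± 0.095, without overlap (adjusted p = 0.113, and 0.0484 with the block). Its partner RVS167 differed by 0.18 ± 0.19, with wild type array 1 the highest of the 6. INP51, a synaptojanin-like phosphatase of phosphatidylinositol bisphosphate, was the patch gene whose deletion arrays all lay below wild type, at 8.54, 8.44 and 8.43 against 8.79, 8.63 and 8.69 in wild type. The difference of -0.23 ± 0.091 did not pass (adjusted p = 0.140, and 0.0519 with the block), and as deposited INP51 lay above wild type by 0.32. INP52, the other synaptojanin here, differed by 0.086 ± 0.14.

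Of the 3 patch kinases 2 rose, beside 6.77% of all genes, and ARK1 had the largest difference of the 44 genes. ARK1 stood at 8.44, 8.31 and 8.41 on the deletion arrays and 7.90, 7.47 and 7.48 on the wild type arrays, and rose by 0.77 ± 0.13 (adjusted p = 0.0110), which is 1.70-fold. PRK1 had 8.06, 8.09 and 7.95 in the deletion strain and 7.50, 7.53 and 7.61 in wild type and rose by 0.49 ± 0.090 (adjusted p = 0.0132), or 1.40-fold. Neither gene overlapped between strains. AKL1, the third kinase of the family, differed by -0.037 ± 0.10 (adjusted p = 0.856), with deletion arrays at 9.37, 9.21 and 9.18 that overlapped the wild type arrays at 9.35, 9.35 and 9.18. ARK1 and PRK1 were the 2 patch genes that also passed with each array centred on its median (adjusted p = 0.0302 and 0.0437). With 1 array left out, ARK1 passed in 5 of 6 fits (adjusted p up to 0.0511), PRK1 and VRP1 in 4 (up to 0.0625 and 0.0582), ENT1 and MYO3 in 2, and YAP1801 and BBC1 in 1.

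From the patch genes, 7 pairs of related genes were chosen with earlier results of these data known. In several pairs the gene that rose has a partner with a smaller difference. A gene picked because it passed the threshold tends to exceed its partner, so these comparisons are descriptive. The difference between the 2 genes of a pair was taken within each array and compared between strains by an exact permutation test, 2-sided, in which no pair can go below 0.1, so that the test could not have called any pair. MYO3 minus MYO5 was -0.13, -0.094 and -0.016 on the deletion arrays and -0.49, -0.56 and -0.33 on the wild type arrays, so that MYO3 changed by 0.38 more than MYO5. YAP1801 changed by 0.27 more than YAP1802, ENT1 by 0.27 more than ENT2 and LSB3 by 0.45 more than YSC84. In these 4 pairs the strains did not overlap, and each had the smallest possible exact p of 0.1, or 0.175 adjusted over the 7 pairs. How often pairs of other genes separate in this way was not tested. ARK1 and PRK1 differed in their changes by 0.28 (exact p = 0.3), INP51 and INP52 by -0.32 (exact p = 0.2), and RVS161 and RVS167 by 0.080 (exact p = 0.9). The sign of the last of these turned without vps1 deletion replicate 2 or wild type replicate 1.

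**Figure D4:**
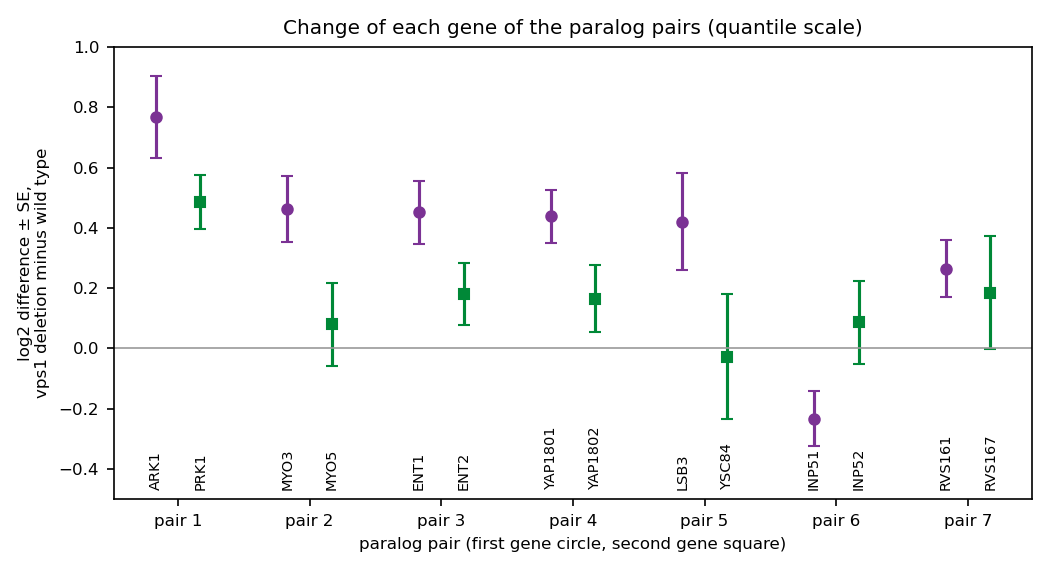
Log2 difference between vps1 deletion and wild type with its SE (y, quantile scale, 3 arrays per strain) for both genes of the 7 chosen pairs of related genes (x, first gene circle, second gene square). The first gene lies higher in all pairs but INP51 and INP52, by 0.080 to 0.45.

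Other genes that act at patches, 26 by name of which 25 were measured, were higher in part. Of the 25, 4 rose and 0 fell, beside 6.77% and 6.28% of all genes, with a median of 0.11. With the block 6 rose and 1 fell, beside 14.4% and 16.4% of all genes. PIN3, also known as LSB2, an SH3 protein that binds Las17, had 11.07, 10.58 and 10.87 on the deletion arrays and 10.13, 9.50 and 9.62 on the wild type arrays, and rose by 1.09 ± 0.19 (adjusted p = 0.0113). HUA1 had 9.47, 9.25 and 9.40 in the deletion strain and 8.72, 8.29 and 7.99 in wild type and rose by 1.04 ± 0.18 (adjusted p = 0.0105). Both are larger than any change among the 44. The count of 4 was 2 without vps1 deletion replicate 1 or 2, beside 4.17% and 4.88% of all genes. It was also 2 without wild type replicate 2 or 3, beside 4.07% and 5.21%, and 1 without vps1 deletion replicate 3, beside 3.65%. APP1, a phosphatidate phosphatase found at patches, rose by 0.49 ± 0.11 (adjusted p = 0.0287), and APM4, the cargo-binding subunit of the AP-2 adaptor, by 0.41 ± 0.10 (adjusted p = 0.0301). LSB1, the relative of PIN3, and SCD5, a protein phosphatase partner at the coat, passed with the block alone. LSB1 differed by 0.37 ± 0.094 (SE with the block, adjusted p = 0.0246, and 0.215 without it), and SCD5 by 0.33 ± 0.081 (SE with the block, adjusted p = 0.0211, and 0.0714 without it). The other AP-2 subunits APL1, APL3 and APS2 differed by 0.21 ± 0.10, 0.16 ± 0.11 and -0.072 ± 0.092 and did not pass, and clathrin heavy and light chain, CHC1 and CLC1, by 0.077 ± 0.10 and 0.058 ± 0.14. MSS4, the kinase that makes the phosphatidylinositol bisphosphate on which the coat assembles, was the 1 gene that fell with the block, with a difference of -0.32 ± 0.074 (SE with the block, adjusted p = 0.0173, and 0.0871 without it).

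Cargo is marked for these sites by the ubiquitin ligase Rsp5 and its arrestin-related adaptors. Of 12 such genes 2 rose and 0 fell, beside 6.77% and 6.28% of all genes, with a median of 0.18. With the block 4 rose, beside 14.4% of all genes. The paralogs ROD1 and ROG3, adaptors known for the turnover of nutrient transporters, were the 2 that rose. ROD1 had 7.69, 7.67 and 7.60 on the deletion arrays and 7.08, 7.24 and 6.88 on the wild type arrays, and ROG3 had 7.63, 7.68 and 7.35 in the deletion strain and 7.12, 7.03 and 6.77 in wild type. They rose by 0.59 ± 0.11 and 0.58 ± 0.13 (adjusted p = 0.0148 and 0.0310), and neither overlapped between strains. The arrestin-related CSR2 and ALY1 passed with the block alone. CSR2 differed by 0.44 ± 0.086 (SE with the block, adjusted p = 0.0103, and 0.0534 without it), and ALY1 by 0.28 ± 0.074 (SE with the block, adjusted p = 0.0281, and 0.142 without it). RSP5 itself differed by 0.11 ± 0.10. The count of 2 became 0 without vps1 deletion replicate 1 or 2, beside 4.17% and 4.88% of all genes. It was 1 without wild type replicate 2 or 3, beside 4.07% and 5.21%. A further list of 10 genes covered other actin structures of the cell. Most are genes of actin cables, and MYO1 is the myosin of the cytokinetic ring. None of the 10 passed in either fit. Only SPA2 (0.22 ± 0.093, groups without overlap) had an unadjusted p below 0.05, beside 1574 of all 5449 genes. MYO1 differed by -0.11 ± 0.18. Of the 10, 5 lay above and 5 below 0 with a median of -0.0014, although the difference between these 10 and the patch genes was not tested. The formins BNI1 and BNR1 differed by -0.032 ± 0.093 and -0.14 ± 0.27, and the tropomyosins TPM1 and TPM2 by 0.13 ± 0.14 and -0.18 ± 0.23. These 10 genes were measured less precisely, with a median SE of 0.16 against 0.11 for the 44 patch genes.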

How the data were processed

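Transcript levels were measured on Affymetrix yeast expression arrays, 3 per strain, from biotinylated cRNA made from 100 ng of total RNA, per the labels' protocols. The deposited values are log2 values, 1 per probe set and array. GCOS, RMA and limma appear in the submitters' processing notes. Their versions and roles, and how the authors scaled arrays to each other, were not given in the sources used here. Arrays have no read depth, and their number limits the precision.

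All 10928 probe sets were quantile normalized over the 6 arrays. The platform annotation named 7244 with 1 symbol, 1 with several and the remainder with none; 5498 matched a Saccharomyces cerevisiae gene of the RefSeq R64 table by identifier or symbol. The probe set with the highest mean represented a gene, which left 5449 genes. Background was set per array, at the 95th percentile of the 1746 named probe sets absent from that table. Differences were tested over all genes with limma 3.58.1 in R 4.3.3 (lmFit, eBayes, 2-sided), with Benjamini-Hochberg adjustment and a threshold of 0.05, and the script was tested on simulated data. Replicate numbers are shared by the strains in the labels, and arrays of equal number deviated together from their strain means (correlation over genes 0.67 for number 1, 0.65 for number 2 and 0.29 for number 3). The fit with that number as a block therefore stands beside the results it changes. The 44 genes, their 8 stages, the 3 further lists and the 7 pairs were chosen with earlier results of these data known. Array values are given for patch genes past the threshold in either fit and for the 2 with the smallest p of each stage; other patch genes are given by difference, as are some genes of the 3 further lists. Genes named beyond those past the threshold in the 3 further lists, and the array values of AKL1, ACT1 and BZZ1, were chosen after their values were seen. Leaving out each array, other scalings, probe set rules and filters were tried as alternatives.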

Additional observations from a re-analysis of the deposited data

How the results depend on the processing

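On the deposited values, without further scaling, 43 of 44 patch genes rose, as did 24 of 25 other patch factors, 12 of 12 arrestin and Rsp5 genes and 8 of 10 genes of other actin structures. Over all genes 4194 were called, of which 4142 rose, and 42 patch genes did not overlap between strains, beside 78.2% of all genes. There BZZ1, YSC84, CRN1, INP51 and AKL1 lay above wild type, by 0.29, 0.52, 0.43, 0.32 and 0.50. Of all genes called, 51.9% were higher on the quantile scale, against 98.8% as deposited, 32.4% with arrays centred on their median and 55.2% centred on the median of genes. With arrays centred on their median, 2 patch genes passed, 7 did not overlap, beside 37.8% of all genes, and PAN1 (-0.065), MYO5 (-0.043), ACT1 (-0.074), PFY1 (-0.082), SCP1 (-0.031) and COF1 (-0.063) turned sign, none of them called. The cause was not tested. Pairing arrays by the replicate block, 21 patch genes, 7 other patch factors, 4 arrestin and Rsp5 genes and 1676 genes passed. The block without both arrays of a number was added after seeing the data. It gave 13 patch genes without number 1, 9 without number 2 and 14 without number 3, of which 13 rose and BZZ1 fell, 5 arrestin and Rsp5 genes without number 3, and 1183 and 1549 genes in all without number 1 and number 3. There YSC84 (0.18), PFY1 (-0.046) and INP52 (-0.0032) turned sign without number 1, AKL1 (0.012) without number 2, and MYO5 (-0.0087) and ACT1 (-0.037) without number 3. Leaving out 1 array gave 1 to 9 patch genes, 1 to 4 other patch factors, 0 to 3 arrestin and Rsp5 genes, 322 to 787 genes in all, and 18 to 32 patch genes without overlap, beside 39.2% to 47.6% of all genes. None of the 7 patch genes called with all arrays and no block turned sign in any of these fits. Uncalled genes did, with ranges of -0.011 to 0.13 for PAN1, -0.039 to 0.15 for MYO5, -0.19 to 0.17 for YSC84, -0.018 to 0.12 for ACT1, -0.068 to 0.11 for PFY1, -0.018 to 0.065 for COF1 and -0.033 to 0.20 for INP52. The difference of changes of RVS161 and RVS167 ranged from -0.18 to 0.22. The mean over probe sets, the filter on dim genes and the eBayes fit with trend and robust estimation left the count of patch genes at 7.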
